A study of Caenorhabditis elegans with 2 samples.

Results

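The regions described here are rows of ChIP-seq peak lists of the tagged transcription factor ZAG-1 that lie at the starts of nuclear tRNA genes in L4 larvae of Caenorhabditis elegans. A row of a replicate's peak list was taken when its summit lay within 300 bp of the start of a nuclear gene annotated as tRNA in the WBcel235 assembly (ce11), and overlapping rows of the replicates were merged into 1 region. This gave 233 regions of 36977 merged regions in all, built from 136 of 11750 rows in replicate 1 and 176 of 30000 rows in replicate 2. They hold the starts of 257 of the 612 nuclear tRNA genes. The regions were 276 to 657 bp wide, with a median of 356 bp, and 28 of them held more than 1 tRNA gene start, up to 3.

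The series holds a single group with 2 biological replicates, per the labels: whole worms at the L4 stage, pooled males and females, of strain OP83. This strain carries the allele unc-119(ed3) on chromosome III and the insertion wgIs83, a transgene for zag-1 tagged with eGFP. Its promoter and the cells that express it are not given in any source used here, and DNA of all cell types was read together, so no cell type can be assigned to a region. Lists from untagged worms or input DNA were not analysed here. The replicate lists were deposited as peaks together with background, for use as input to the IDR step, so a row is not in itself a significant peak. A q-value at or under 0.05 was listed for 7 of 136 tRNA rows in replicate 1 (5.15%, interval 2.52 to 10.2), against 1.73% of all rows, and for 36 of 176 in replicate 2 (20.5%, interval 15.2 to 27.0), against 7.68%. The lists hold no read counts, so the depth behind each value is unknown, and the Wilson 95% intervals cover counting error only. Replicate 2 listed more rows on a lower signal scale than replicate 1 (medians of 7.95 and 14.8), so signal was read as a percentile within each list, where 100 is the strongest.

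RNA polymerase III transcribes tRNA genes from promoter elements inside the gene: the factor TFIIIC binds the A box and the B box and recruits TFIIIB just upstream of the start, and a run of T bases after the gene ends transcription. ZAG-1 is the worm member of the ZEB family of zinc finger and homeodomain proteins, known for roles in neuron differentiation and axon guidance, and ZEB proteins bind E boxes of the form CAGGTA or CAGGTG. Identical copies of tRNA genes lie in many places of the worm genome, so short reads from inside the gene can map to several of them.

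Of the 233 regions, 9 overlapped the IDR list, which keeps peaks whose ranks are reproducible between replicates. The tRNA genes at 5 of these 9 regions are printed here. The sequences are of the reference genome, 5′ to 3′ on the gene's strand, with the B box core (GTTCNANNC) and, where found near the 5′ end, part of the A box (TNGCNNAG) in capitals.
K02A4.t1 (tRNA-Ser, chrX:12889940-12890021, + strand): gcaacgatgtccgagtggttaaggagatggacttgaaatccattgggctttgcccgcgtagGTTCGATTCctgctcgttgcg
R04A9.t1 (tRNA-Gln, chrX:410391-410462, + strand): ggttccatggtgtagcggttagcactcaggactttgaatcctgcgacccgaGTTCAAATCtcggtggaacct
F46G11.t2 (tRNA-Pro, chrX:5801211-5801282, - strand): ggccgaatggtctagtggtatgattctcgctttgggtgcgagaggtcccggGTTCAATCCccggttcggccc
R11.t1 (tRNA-Tyr, chrX:16209769-16209852, - strand): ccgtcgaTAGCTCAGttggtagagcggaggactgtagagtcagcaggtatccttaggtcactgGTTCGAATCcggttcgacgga
C18A11.t2 (tRNA-Arg, chrX:8036685-8036757, - strand): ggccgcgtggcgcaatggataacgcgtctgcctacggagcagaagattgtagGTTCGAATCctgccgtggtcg
All 5 genes hold the B box core, and the word TNGCNNAG was found in R11.t1 only. This word fixes most of its letters, so a gene without it can still hold an A box. K02A4.t1 has a unique sequence in the genome, whereas the others have 6 to 24 identical copies, counting the gene itself.

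The stretches just upstream differ from gene to gene even where the genes are identical. The 120 bases before M02F4.t2, R04A9.t1, C18A11.t2 and M02F4.t1 do not hold GAGAGA, read on either strand and so also as TCTCTC. Those before 6 of the other genes at these 9 regions are shown with the word in capitals, followed by those before M02F4.t1.
C28G1.t1 (chrX:8835993-8836112, + strand): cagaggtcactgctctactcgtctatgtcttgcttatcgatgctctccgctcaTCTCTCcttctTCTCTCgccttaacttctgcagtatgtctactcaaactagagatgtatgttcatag
W03G11.t1 (chrX:12106220-12106339, - strand): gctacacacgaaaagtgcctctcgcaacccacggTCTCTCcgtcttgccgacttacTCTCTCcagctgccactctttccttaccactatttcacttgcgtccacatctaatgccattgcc
F46G11.t1 (chrX:5801352-5801471, + strand): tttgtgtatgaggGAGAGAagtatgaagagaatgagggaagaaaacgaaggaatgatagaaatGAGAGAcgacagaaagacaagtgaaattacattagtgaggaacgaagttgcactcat
K02A4.t1 (chrX:12889820-12889939, + strand): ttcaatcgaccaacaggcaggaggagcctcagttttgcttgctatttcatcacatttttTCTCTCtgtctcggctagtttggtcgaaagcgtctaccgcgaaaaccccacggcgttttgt
F41D9.t3 (chrX:8404379-8404498, + strand): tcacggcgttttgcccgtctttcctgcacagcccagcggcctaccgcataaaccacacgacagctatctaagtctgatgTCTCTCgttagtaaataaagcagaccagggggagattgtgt
R11.t1 (chrX:16209853-16209972, - strand): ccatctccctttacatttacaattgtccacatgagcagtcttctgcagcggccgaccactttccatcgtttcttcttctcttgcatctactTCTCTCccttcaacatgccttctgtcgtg
M02F4.t1 (chrX:3036044-3036163, + strand): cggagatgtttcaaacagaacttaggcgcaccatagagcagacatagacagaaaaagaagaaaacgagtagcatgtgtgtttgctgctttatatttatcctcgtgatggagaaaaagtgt
Among the 11 tRNA genes with an IDR summit within 300 bp, 8 had this word in the 250 bp upstream, against 25% of all 612 tRNA genes. These genes are not all separate: F46G11.t1 and F46G11.t2, both among the 8, share a peak and part of their upstream stretches. So do M02F4.t1 and M02F4.t2, which both lack the word. The word is frequent at IDR peaks in general: it lay in the 300 bp around the centre of 6 of the 9 tRNA regions in the IDR list and of 57.0% of all merged regions in that list.

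A summit within 300 bp was listed at 145 of 612 tRNA genes (23.7%, interval 20.5 to 27.2) in replicate 1 and at 189 (30.9%, interval 27.4 to 34.7) in replicate 2. Both lists had one at 77 genes (12.6%, interval 10.2 to 15.4), and neither list had one at 355 genes (58.0%). Genes that share a region were counted separately. The share with a summit in both lists was 3.57% among the 19973 protein-coding genes, 13.9% among 346 snoRNA genes and 8.53% among 129 snRNA genes. Starts of tRNA genes thus carried summits in both lists more often than protein-coding starts, with intervals that do not overlap (3.33 to 3.84 for protein-coding genes). The interval of the tRNA genes overlapped those of the snoRNA genes (10.6 to 17.9) and of the snRNA genes (4.83 to 14.6). With the limit at 100 bp in place of 300 bp the tRNA share was 7.52%.

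A protein-coding start lay within 300 bp of a summit in 19 of the 233 regions (8.15%), and a snoRNA or snRNA start in 1 region each. By rows, a protein-coding start was that near at 14 of 136 in replicate 1 (10.3%, interval 6.23 to 16.5), against 14.7% of all rows, and at 12 of 176 in replicate 2 (6.82%, interval 3.94 to 11.5), against 13.2%. Rows without a protein-coding start nearby were as strong as the whole set, with a median signal percentile of 71.5 in replicate 1 and 69.7 in replicate 2. Genes inside introns of protein-coding genes and genes outside them differed little: 32 of 283 intronic tRNA genes (11.3%) and 43 of 319 outside protein-coding genes (13.5%) had a summit in both lists.

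Summits clustered around the start of the tRNA gene, both inside and outside the gene itself. Their median position was 19.5 bp downstream of the gene start in replicate 1 and 24.5 bp in replicate 2, and 85 of 136 (62.5%) and 106 of 176 (60.2%) lay within 100 bp of it. Inside the gene lay 35 summits of replicate 1 (25.7%) and 54 of replicate 2 (30.7%). The gene, with a median length of 72 bp where both lists had a summit, is short beside the 300 bp on each side. These counts therefore do not show that summits avoid the gene. The 300 bp rule bounds these positions, so the counts beyond it give the level around it. In replicate 1, 43 summits fell in the 100 bp before the start and 41 in the 100 bp after it, against 4 to 6.33 per 100 bp between 300 and 1500 bp on either side. In replicate 2 these counts were 40 and 65, against 11.7 to 18 per 100 bp farther out. Around protein-coding starts the density had no such narrow peak: per 1000 genes, replicate 1 had 67.0 summits in the 100 bp after tRNA starts and 14.5 after protein-coding starts, and replicate 2 had 106 and 28.7.

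**Figure D1:**
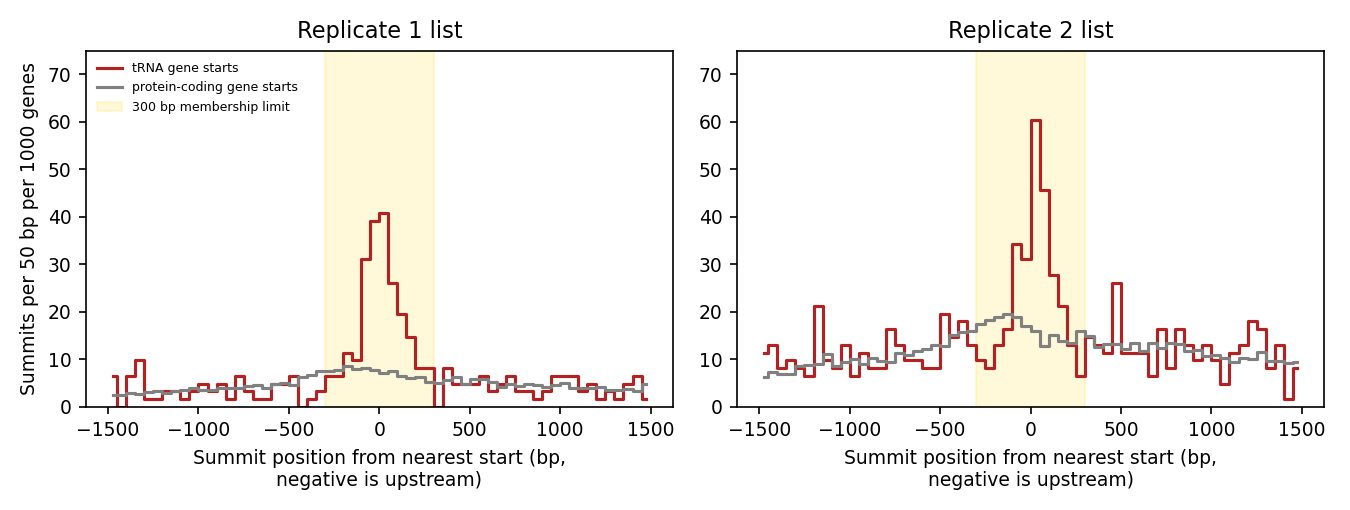
Summits per 50 bp per 1000 genes (y axis) against the position of the summit from the nearest start in bp (x axis), for tRNA starts (red) and protein-coding starts (grey) in each replicate list; the shaded band is the 300 bp limit of the membership rule. In both replicates the red line rises above the grey one from about 100 bp upstream to 200 bp downstream of the start, and farther out the red line varies around the grey one and is lower than it in some bins.

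The rows nearest the limit were as follows. In replicate 1 the last rows inside were at Y102E9.t1 (289 bp, signal 12.4) and T07H6.t1 (287 bp, signal 17.3), and the first outside were at M57.t1 (-306 bp, signal 13.4) and C06G1.t1 (-341 bp, signal 12.3). In replicate 2 those inside were at T26C11.t1 (-300 bp, signal 12.2) and K02A4.t2 (-296 bp, signal 16.6), and those outside at C06B8.t2 (-303 bp, signal 13.2) and C05E7.t3 (307 bp, signal 15.1). Rows with summits within 100 bp were stronger than those farther out, with median percentiles of 78.5 and 54.8 in replicate 1 and of 72.3 and 54.8 in replicate 2.

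The tRNA rows stood high in both lists. In replicate 1 their median signal percentile was 71.2, and 39 of 136 (28.7%, interval 21.7 to 36.8) were among the strongest 10% of the list, against 10% of all rows. In replicate 2 the median was 68.9, and 40 of 176 (22.7%, interval 17.2 to 29.5) were among the strongest 10%, against 10% of all rows. Rows at protein-coding starts that were not tRNA rows had medians of 56.1 and 52.6 in the replicates. Rows at snoRNA starts had medians of 78.8 and 58.2, and rows at snRNA starts had 84.8 and 68.5, so the tRNA rows were not the highest class in replicate 1. Among the strongest 10% were 36.4% and 14.9% of the snoRNA rows, and 44% and 27.6% of the 25 and 29 snRNA rows. By this share the snRNA rows stood above the tRNA rows in both replicates, with intervals that overlap.

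Agreement between the replicates was partial but above that of other regions. Rows of both lists made up 64 of the 233 regions (27.5%, interval 22.1 to 33.5), against 10.5% of all merged regions. Another 61 regions had rows of replicate 1 alone and 108 of replicate 2 alone, where only rows with a summit inside the 300 bp limit count. With any row counted, as was done for all merged regions, 73 of the 233 regions were overlapped by rows of both lists. Seen from each list, 80 of 136 replicate 1 rows (58.8%) were overlapped by a row of replicate 2, against 34.4% of all rows, and 70 of 176 replicate 2 rows (39.8%) by a row of replicate 1, against 13.6%. The 64 shared regions were also the stronger ones, with median percentiles of 87.2 in replicate 1 and 83.6 in replicate 2, against 57.2 and 59.7 for regions in 1 list. Both rows were among the strongest 10% of their lists in 15 of the 64 (23.4%), against 9.54% of the 3887 merged regions with rows of both lists. Of the 77 genes with a summit in both lists, the rows overlapped at 74. Across the 64 shared regions Spearman's rho of the signals was 0.40, a description over regions that share the same pair of libraries; over all 3887 such regions it was 0.27.

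**Figure D2:**
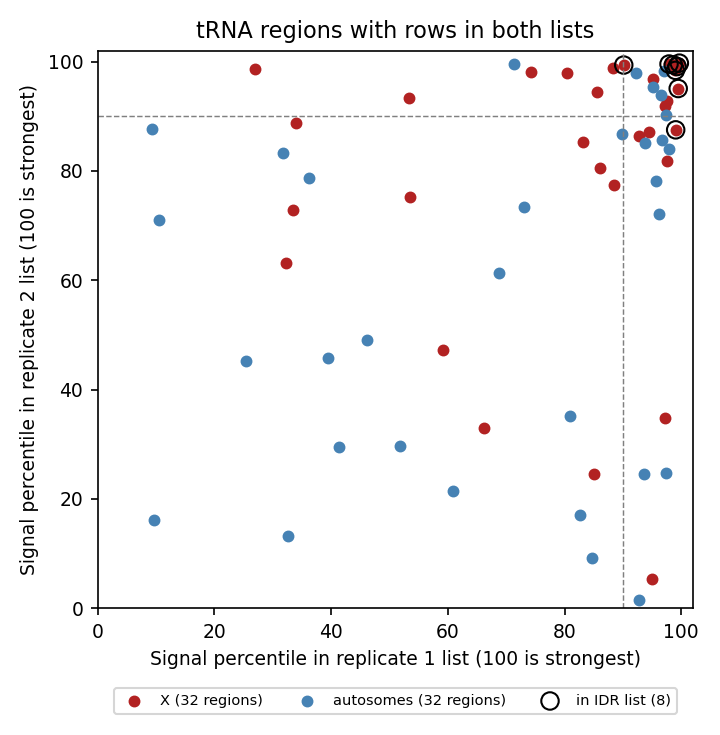
Signal percentile in replicate 2 (y axis) against that in replicate 1 (x axis) for the 64 tRNA regions with rows of both lists, 32 on X (red) and 32 on autosomes (blue); dashed lines mark the strongest 10% of each list and black rings the regions in the IDR list. The 8 ringed regions are red and lie toward the upper right corner, while single regions of either colour are high in 1 list and low in the other.

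The IDR list held 9 of the 233 regions (3.86%, interval 2.05 to 7.18), against 0.66% of all merged regions, and the pooled list held 78 (33.5%), against 10.6%. Without replicate 2, over the 125 regions that have any replicate 1 row, the IDR share was 7.2%. By genes, an IDR summit lay within 300 bp of 11 tRNA starts (1.80%), against 0.466% of protein-coding starts. It lay that near to 9 of 346 snoRNA starts (2.60%) and 6 of 129 snRNA starts (4.65%). The tRNA share was thus below those of both classes, with intervals that overlap. All 9 regions lay on chromosome X, which holds 276 of the 612 tRNA genes (45.1%) and 28.0% of the IDR peaks (69 of 246). In the pooled list 41 of the 78 tRNA regions were on X, and X held 20.7% of the pooled peaks. The strongest autosomal tRNA region of the pooled list, at ZK507.t1 on chromosome III, had a pooled signal of 44.7, just under the lowest signal in the IDR list, 45.4.

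The highest IDR signal at a tRNA gene was 189, at C18A11.t2, a tRNA-Arg gene, where the peak ranked 9 in the IDR list. Its summit lay 284 bp downstream of the start, past the end of this 73 bp gene, so it entered near the limit of the rule. Signals there were 100.4 in replicate 1 (rank 13) and 92.9 in replicate 2 (rank 3), but the replicate 2 summit was at 327 bp and so the row fell outside the rule. The summit lay at -4840 bp from the nearest protein-coding start, that of xol-1, a switch gene of sex determination, where a negative distance is upstream. This region is therefore a member by distance and not by a summit at the gene, and without it the IDR share of the regions was 3.45%.

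At the other 8 regions the IDR summit lay within 100 bp of a tRNA start. M02F4.t1, a tRNA-Gly gene that shares its region with the divergent tRNA-Glu gene M02F4.t2, had signals of 57.9 in replicate 1 and 27.9 in replicate 2, ranks 38 and 81. R11.t1, a tRNA-Tyr gene, had 33.8 and 23.0, ranks 160 and 175. These were the best mean ranks among regions with rows of both lists, and both genes were high in both replicates.

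C28G1.t1, a tRNA-Glu gene, had signals of 42.8 in replicate 1 and 20.8 in replicate 2, and it is the member of this set with a protein-coding start close by, that of C28G1.2, 44 bp from a summit. F41D9.t3, a tRNA-Asn gene within an intron, had 29.7 and 24.6. F46G11.t2 and F46G11.t1, divergent tRNA-Pro genes that share a region, had 37.7 and 18.02. The stronger replicate 1 summit there lay at -34 bp from the start of F46G11.t2, and the replicate 2 summit at 96 bp, past the end of this gene. Ranks at these regions lay between 83 and 478 in the lists, so they too stood near the top of each.

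The remaining IDR regions leaned on 1 replicate. K02A4.t1, the tRNA-Ser gene with a unique sequence, had signals of 20.8 in replicate 1 (rank 1158) and 22.7 in replicate 2 (rank 186). R04A9.t1, a tRNA-Gln gene within an intron, had 47.7 (rank 61) and 14.4 (rank 1474). W03G11.t1, a tRNA-Lys gene, had 38.2 (rank 112) and 11.9 (rank 3742), which was the lowest replicate 2 rank of the 9.

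Autosomal genes were also among the best by mean rank, and ZK507.t1 stood ahead of K02A4.t1, R04A9.t1 and W03G11.t1. ZK507.t1, a tRNA-Asn gene on chromosome III, had signals of 27.3 in replicate 1 and 17.9 in replicate 2, ranks 338 and 496, with summits 15 and 6 bp upstream of its start. Y104H12A.t1, a tRNA-Glu gene on chromosome IV, had 21.9 and 17.1, and Y38E10A.t1, a tRNA-Ala gene on chromosome II, had 24.2 and 14.6. On X, F38G1.t2 (tRNA-Asp) had 24.2 and 15.7, and C53C7.t1 (tRNA-Ser) had 20.1 and 19.2. These 5 complete the 12 regions with the best mean rank, and none of them is in the IDR list.

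Large differences between the replicates occurred as well. The region at sup-5, a tRNA-Trp gene known for its amber suppressor alleles, had a signal of 22.1 in replicate 1 (rank 854) and of 5.80 in replicate 2 (rank 29569 of 30000). C16B8.t2 (tRNA-Pro) had 24.1 and 5.94, and C43G2.t1 (tRNA-Leu) had 19.1 and 6.07, also near the end of the replicate 2 list. In the other direction F10C1.t2 (tRNA-Leu) stood at percentile 9.31 in replicate 1 and 87.7 in replicate 2, Y59E1B.t2 (tRNA-Pro) at 27 and 98.7, and E01H11.t1 (tRNA-Met) at 34.0 and 88.8. These genes were chosen by difference in rank; by percentile T14B4.t1 (tRNA-Leu), at 10.5 and 71.0, differed more than E01H11.t1. The related suppressor gene sup-7, named after its values were seen, was in both lists with signals of 13.8 and 9.73.

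Regions with several tRNA starts were found at the top of the ranking and below it. M02F4.t1 with M02F4.t2, F46G11.t2 with F46G11.t1 and C53C7.t1 with C53C7.t2 are each 1 region with 2 starts among the 12 best. The region at K01A12.t2 on X, with 3 tRNA starts, had a row in replicate 1 alone, with a signal of 16.3. That at H08J11.t3, also with 3 starts, had 20.1 in replicate 1 and 10.3 in replicate 2, and the one at B0344.t2, with 2 starts, had a row in replicate 2 alone, with a signal of 10.03. Among tRNA genes within 500 bp of another tRNA start, 23 of 159 (14.5%) had a summit in both lists, against 54 of 453 (11.9%) of the others, and 5 and 6 of them had an IDR summit.

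Chromosome X held 111 of the 233 regions (47.6%), close to its 45.1% of the tRNA genes and above its 19.2% of all merged regions. A summit in both lists stood at 40 of 276 X genes (14.5%, interval 10.8 to 19.1) and at 37 of 336 autosomal genes (11.01%, interval 8.10 to 14.8), so the shares had overlapping intervals. Among autosomes the lowest share was on chromosome I, with 3 of 66 genes (4.55%), and the highest on chromosome III, with 10 of 64 (15.6%). Signal differed more than occurrence did. In replicate 1 the median percentile was 80.7 for the 66 X rows and 60.3 for the 70 autosomal rows, and in replicate 2 it was 75.2 for 87 X rows and 59.5 for 89 autosomal rows. Rows that were not at tRNA genes had medians of 50.9 on X and 49.4 on autosomes in replicate 1, and of 49.99 and 49.9 in replicate 2.

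The same held for the strongest rows. Among X tRNA rows 23 of 66 (34.8%, interval 24.5 to 46.9) in replicate 1 and 27 of 87 (31.0%, interval 22.3 to 41.4) in replicate 2 were in the strongest 10%. Among autosomal tRNA rows these were 16 of 70 (22.9%, interval 14.6 to 34.0) and 13 of 89 (14.6%, interval 8.74 to 23.4). The X rows were higher in both replicates, but the intervals of X and autosomes overlap in each. Whether an X gene lay in an intron went with its signal: intronic X rows had median percentiles of 66.2 in replicate 1 and 67.6 in replicate 2, and other X rows had 85.6 and 80.7. On autosomes these medians were 59.8 and 61.1 for intronic rows, and 60.8 and 50.3 for other rows.

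**Figure D3:**
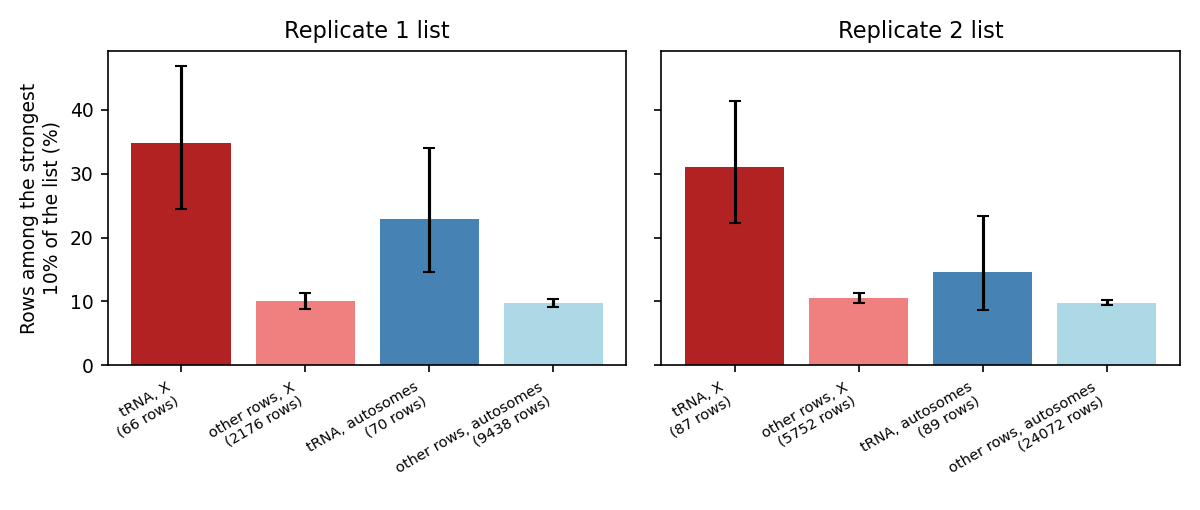
Percent of rows among the strongest 10% of each replicate list (y axis) for tRNA rows and other rows on X and on autosomes; bars are shares and error bars Wilson 95% intervals. The tRNA bars on X are 34.8% and 31.0%, those on autosomes 22.9% and 14.6%, and the bars of other rows lie close to 10%.

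By amino acid, the share of genes with a summit in both lists ran from 10 of 42 tRNA-Pro genes (23.8%, interval 13.5 to 38.5) to 0 of 20 tRNA-His genes (interval 0 to 16.1) among products with 10 or more genes. Between them stood, for example, 7 of 39 tRNA-Leu genes (17.9%), 7 of 46 tRNA-Lys genes (15.2%), 7 of 55 tRNA-Gly genes (12.7%), and 2 of 44 tRNA-Arg genes (4.55%). The intervals of the extremes overlap, so the products cannot be ranked at these gene numbers. The tRNA-Arg genes had 61.4% of their members on X, the largest share among products with 10 or more genes. The gene for tRNA-Sec, which decodes UGA as selenocysteine, K11H12.t1 on chromosome IV, had a summit 202 bp upstream in replicate 1 and another 248 bp downstream of the start in replicate 2, in separate regions.

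**Figure D4:**
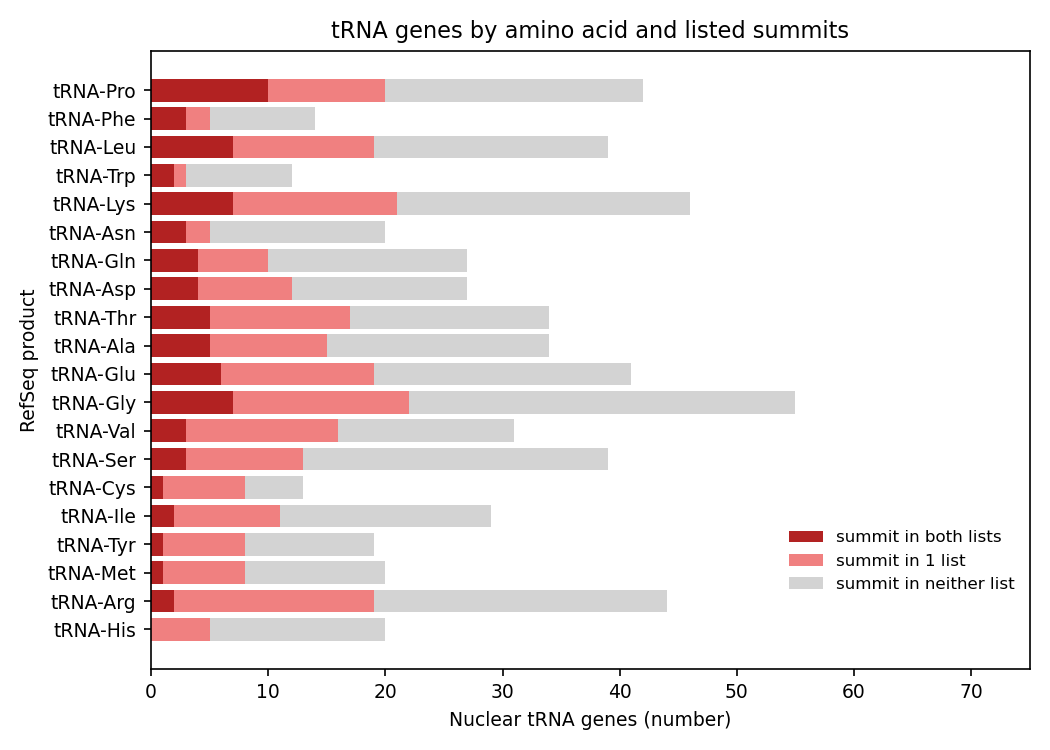
Number of nuclear tRNA genes (x axis) for each RefSeq product with 10 or more genes (y axis), ordered by the share with summits in both lists; dark red marks summits in both lists, light red in 1 list and grey in neither. Every product shown has genes without a listed summit, and tRNA-His is the product with none in both lists.

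Identical copies of a gene could differ in their summits. Of the 612 genes, 469 have at least 1 identical copy, in 57 families. In 33 families some copy had a summit in both lists, in 1 family all of its copies and in 32 only some. The other 24 families had no copy in both lists, and 7 of these had no summit in either list. A summit in either list stood at 36 of 143 genes with a unique sequence (25.2%, interval 18.8 to 32.9), at 39 of 82 genes with 2 to 5 copies (47.6%, interval 37.1 to 58.2) and at 182 of 387 genes with 6 or more copies (47.0%, interval 42.1 to 52.0). Genes with a repeated sequence were more often at a summit on X (52.1%, against 22.8% of unique ones) and on autosomes (42.8%, against 26.7%), although the autosomal intervals touch (36.8 to 49.0 and 18.5 to 36.9). With a summit in both lists the intervals overlapped: 52 of 387 genes with 6 or more copies (13.4%, interval 10.4 to 17.2) and 11 of 143 unique genes (7.69%, interval 4.35 to 13.2). Unique words of 30 bases were counted in a window of fixed length that reaches 150 bp to each side of its middle and includes gene sequence. Their share had a median of 79.8% at genes in both lists and 79.4% at genes in 1 list or in neither. This median was 88.2% at genes with a unique sequence and 79.0% at genes with 6 or more copies, so the share is not separate from copy number. With 90% or more unique words, 16 of 60 genes had a summit in either list (26.7%, interval 17.1 to 39.0), against 241 of 552 genes under 90% (43.7%, interval 39.6 to 47.8). In both lists these were 4 (6.67%) and 73 (13.2%). How reads that map to several copies were treated is not given in the sources used here, and the part of mapping in these shares was not tested.

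A comparison within a family holds the gene sequence constant. The tRNA-Pro family of F46G11.t2 has 24 identical copies, 6 of them in both lists, and the 80 bases upstream of 5 copies are shown here, with GAGAGA or TCTCTC in capitals.
T23F1.t2, both lists (gene at chrV:15465225-15465296, - strand): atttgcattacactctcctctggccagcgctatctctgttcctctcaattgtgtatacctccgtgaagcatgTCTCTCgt
W09D6.t1, both lists (gene at chrIII:11067027-11067098, + strand): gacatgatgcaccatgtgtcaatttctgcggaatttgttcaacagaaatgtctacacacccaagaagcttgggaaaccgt
F02H6.t1, neither list (gene at chrIV:14225102-14225173, + strand): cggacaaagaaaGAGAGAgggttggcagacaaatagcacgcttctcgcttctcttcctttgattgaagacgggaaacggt
Y71H2AM.t1, neither list (gene at chrIII:2711711-2711782, + strand): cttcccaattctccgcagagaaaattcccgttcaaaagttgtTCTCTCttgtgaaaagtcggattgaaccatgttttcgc
C16B8.t1, neither list (gene at chrX:3969556-3969627, + strand): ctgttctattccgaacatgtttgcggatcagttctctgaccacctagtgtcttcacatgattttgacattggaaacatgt
Of the 6 copies in both lists, 3 had GAGAGA within 250 bp upstream, and of the other 18 copies, 6 had it. The 3 copies in both lists with the word are T23F1.t2 and the divergent neighbours F46G11.t1 and F46G11.t2, which also share a region. The 3 without it are W09D6.t1 and W09D6.t2, neighbours that share a region, and C48C5.t3, whose replicate 2 summit lay nearer to its identical neighbour C48C5.t1 and whose rows in the lists do not overlap. In the tRNA-Gln family of R04A9.t1, 2 of 15 copies were in both lists; both had the word, against 4 of the other 13. Copies with the word and no summit in both lists, and copies with such summits and no word, thus both occurred.

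Over all tRNA genes the repeat word went with the summits. GAGAGA, on either strand, lay within 250 bp upstream of 41 of the 77 genes in both lists (53.2%), of 39 of 180 in 1 list (21.7%) and of 73 of 355 in neither (20.6%). Read from the word, 41 of 153 genes with it (26.8%) had a summit in both lists, against 36 of 459 without it (7.84%). Among protein-coding genes these shares were 5.26% with the word and 3.18% without it. The difference was present on X, with 23 of 64 genes (35.9%, interval 25.3 to 48.2) against 17 of 212 (8.02%, interval 5.07 to 12.5), and on autosomes, with 18 of 89 (20.2%, interval 13.2 to 29.7) against 19 of 247 (7.69%, interval 4.98 to 11.7).

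**Figure D5:**
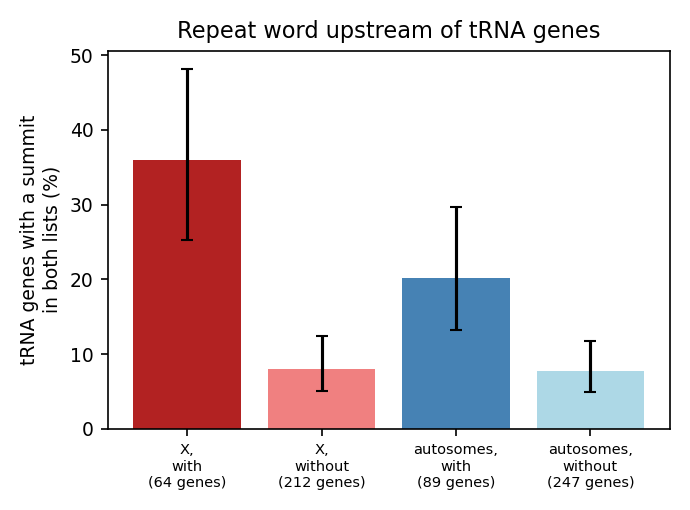
Percent of tRNA genes with a summit in both lists (y axis) for X and autosomal genes with and without GAGAGA, on either strand, in the 250 bp upstream; bars are shares and error bars Wilson 95% intervals. The share is 35.9% with the word and 8.02% without it on X, and 20.2% and 7.69% on autosomes.

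In genes of both lists the word stood mostly as TCTCTC on the strand of the gene (33 genes, against 12 with GAGAGA), and it was found most often 51 to 100 bp before the start (18 of 77 genes, 23.4%). Genes in neither list had the same preference at lower shares, with TCTCTC in 47 and GAGAGA in 32 of 355 genes and 51 to 100 bp as the commonest place (28 genes, 7.89%). Rows at genes with the word were also stronger. In replicate 1 their median percentile was 85.1, against 60.4 for rows at genes without it, and in replicate 2 it was 79.7, against 62.8. Within 100 bp of the summit, GAGAGA occurred in 17 of the 39 strongest tRNA rows of replicate 1 (43.6%) and in 18.6% of its other tRNA rows, against 30.4% of the strongest rows elsewhere; in replicate 2 these shares were 32.5%, 16.2% and 17.7%. The word is a string of letters in the reference, and no factor was assigned to it here.

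Other words searched on either strand in the 250 bp upstream gave these shares. CGTCTC, which can overlap the repeat word, lay before 12.6% of tRNA genes, and 22 of 77 genes with it (28.6%, interval 19.7 to 39.5) had a summit in both lists, against 10.3% without it (interval 7.98 to 13.1) and 7.37% of protein-coding genes with it. ACGCAG lay before 14.1% of tRNA genes, and 18 of 86 (20.9%, interval 13.7 to 30.7) had such a summit, against 11.2% without it (interval 8.80 to 14.2) and 7.55% of protein-coding genes with it. For CACACA, before 13.6% of tRNA genes, these were 16 of 83 (19.3%, interval 12.2 to 29.0), against 11.5% (interval 9.08 to 14.5) and 5.2%. The E box forms CAGGTA and CAGGTG, searched together, lay before 14.2% of tRNA genes: 6 of 87 genes (6.90%, interval 3.2 to 14.2) had a summit in both lists, against 13.5% without them (interval 10.9 to 16.7) and 1.98% of protein-coding genes with them. Protein-coding genes without the word had shares of 3.19% for CGTCTC, 3.27% for ACGCAG, 3.33% for CACACA and 3.77% for the E box forms. Each contrast thus had the same direction at protein-coding genes as at tRNA genes. Over all tRNA genes, the intervals with and without the word do not overlap for CGTCTC and overlap for the other words. For CGTCTC the separation was on X, at 48% (interval 30.03 to 66.5) against 11.2% (7.83 to 15.7). On autosomes the intervals overlap, at 19.2% (10.8 to 31.9) against 9.51% (6.62 to 13.5). On X those of ACGCAG do not overlap either. All rows at genes with CGTCTC had median percentiles of 70.1 against 71.7 without it in replicate 1, and 47.2 against 68.96 in replicate 2. For ACGCAG they were 79.5 against 69.6 and 80.6 against 65.8.

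In the 300 bp around the region centres the E box forms were about as frequent at the 233 tRNA regions as elsewhere (15.9%, against 13.9% of all merged regions). GAGAGA was in 25.8% of the tRNA regions, against 16.8%, CGTCTC in 14.6%, against 8.82%, and CACACA in 18.02%, against 13.3%. For CACACA the order was the opposite in the pooled list (12.8% of tRNA regions, against 19.2% of all), in the IDR list (2 of 9, against 41.8%) and in the strongest 10% of replicate 1 (10.3% of tRNA rows, against 20.9% of other rows). For CGTCTC it was the opposite in the IDR list (3 of 9, against 48.0%). It was also the opposite in the strongest 10% of replicate 1 (17.9% of tRNA rows, against 20.5% of other rows) and of replicate 2 (5%, against 10.7%). In the pooled list CGTCTC kept the order (19.2% of tRNA regions, against 16.2%). The widest contrast among these words was for ACGCAG, in 21.5% of the tRNA regions, against 6.64%. Some tRNA genes hold ACGCAG or its reverse complement within the gene, such as R04D3.t2 (tRNA-Val) and C43G2.t1 (tRNA-Leu). This contrast thus also follows in part from choosing regions at tRNA genes. ACGCAG was in 32.1% of tRNA regions in the pooled list, against 13.2% of all, and in 3 of 9 in the IDR list, against 39.8%. The A box letters were in 48.5%, against 25.3%, which follows in part from choosing regions at tRNA genes.

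The B box core and the terminating T run were found in most genes, with and without summits. The B box core was found in 96.1% of genes in both lists, 98.9% in 1 list and 94.4% in neither. The A box word TNGCNNAG was found in 41.6%, 46.7% and 41.4%, and genes without it can still hold an A box. A run of 4 T bases followed within 30 bp of 605 of the 612 genes. Read from the element, 252 of 587 genes with the B box core had a summit in either list (42.9%, interval 39.0 to 47.0), against 5 of 25 without it (20%, interval 8.86 to 39.1), and in both lists 74 (12.6%) against 3 (12%). For the T run the shares in either list were 42.3% of genes with it and 14.3% of the 7 without it. The B box core lay in 180 of the 233 region windows (77.3%), against 10.4% of all merged regions, which follows in part from choosing regions at tRNA genes. Among the 77 genes in both lists, 3 had no B box core: C16B8.t2, C16B8.t3 and E01H11.t1, named after their values were seen.

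Summits were also counted at the starts of protein-coding genes that make or use tRNAs. Of 23 genes for RNA polymerase III and its factors, 0 had a summit in both lists within 300 bp of the start (2 in replicate 1 and 5 in replicate 2), against 3.57% of protein-coding genes. Of 16 annotated genes on a list of 19 for tRNA maturation and modification, 1 had, elpc-2, a subunit of the Elongator complex that modifies wobble uridines, with signals of 16.6 in replicate 1 and 6.16 in replicate 2. Of 32 annotated genes on a list of 38 for aminoacyl-tRNA synthetases, which charge tRNAs with their amino acids, 0 had one (2 in replicate 1 and 7 in replicate 2). None of the 3 lists had a gene with an IDR peak within 300 bp of its start. Over all protein-coding genes a summit was listed at 9.11% in replicate 1 and 20.4% in replicate 2, and an IDR summit at 0.466%. With so few genes these counts are near the protein-coding background.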

How the data were processed

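ChIP-seq peak lists from 2 biological replicates of 1 group were used, with the pooled and IDR lists made from them, all in ce11. Per the labels, fragments were 150 to 350 bp long. The signal of each peak, in the unit of the authors' caller, and the −log10 of its q-value were used as deposited by the authors, only to rank peaks within a list. The aligner, peak caller, IDR threshold and treatment of reads with several matches are not given in any source used here, and the depth is unknown. Lists in the older build were not used.

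Genes came from Ensembl release 115 on WBcel235, the same assembly as ce11. Products and names of all 612 nuclear tRNA genes matched RefSeq, and 5 have no product. Pseudogenes and anticodons were not analysed here. The nearest start was assigned to each summit, overlap was at least 1 bp, and shares have Wilson 95% intervals. With 1 group there was no test. Named genes were those at the 12 regions with the best mean rank, at IDR peaks, at the largest groups of starts, beside the 300 bp limit and with the largest rank differences. Members and lists were chosen with earlier results of these data known. The tools were Python 3.11.15, pandas 2.3.3, numpy 2.4.6, scipy 1.17.1 and, for plots, matplotlib 3.10.9, and the assignment was checked on simulated data. Alternatives covered the distance limit, the rank limit, the window, the ranking score and each replicate left out.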

Additional observations from a re-analysis of the deposited data

How the results depend on the processing

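No paired analysis was possible because the series holds a single group. Of 62 alternative values, 41 stayed within the interval or tolerance of the reported one and 21 moved; none changed sign except 1 summit position. The share of tRNA genes with a summit in both lists, 12.6%, was 7.52% with a limit of 100 bp and 16.8% with 500 bp, and 23.7% to 30.9% with 1 list alone. The IDR share of the regions, 3.86%, was 4.6% to 7.2% with 1 list alone and 33.5% with the pooled list in its place. Without the region at C18A11.t2, an alternative chosen after seeing the data, it was 3.45%. With the strongest 5% or 25% of rows in place of 10%, the tRNA share was 20.6% or 45.6% in replicate 1 and 12.5% or 40.9% in replicate 2. The median percentile was 78.5 at 100 bp and 69.1 at 500 bp in replicate 1, and 72.3 and 59.8 in replicate 2. The median summit position at 100 bp was -3.0 bp in replicate 1 and 18 bp in replicate 2. Regions in both lists were 20.2% when summits had to lie within 100 bp of each other. The B box core was in 94.4% of regions at 100 bp and 59.7% at 500 bp, and in 57.5% and 94.4% of windows of 100 and 250 bp on each side; a narrower limit or a wider window places more of the gene in the window by construction. The cause of the other shifts was not tested. Depth is unknown, so absence from a list is not absence of binding.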
